A study of Mus musculus with 27 samples.

Results

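The TAM receptors and their ligands were followed here as 5 genes, the receptor genes Axl, Tyro3 and Mertk and the ligand genes Gas6 and Pros1, out of 37208 genes or transcripts on the array. They were chosen by name, each probe being matched to its gene through its RefSeq accession, and 6 probes were found: Tyro3 had a pair and each of the other 4 members had 1. The samples were 27 one-colour arrays of cells from a single engineered line of mouse embryonic stem cells (ESCs), picked as clones, which all groups share: doxycycline (DOX) switches on a Flag-tagged dominant-negative FOS (dnFOS) from the Hprt locus, a peptide that pairs with AP-1 transcription factors and keeps them off DNA, and without DOX the same cells serve as control. ESCs were grown as embryoid bodies for 3.75 days and cells carrying the receptor FLK1 were purified (FLK). They were then placed in blast culture with IL-6 and VEGF, with or without DOX at 1 µg/ml, and taken as complete cultures after 5 h (FLK5h) or 1 day (d1BC), or sorted after 2 days into smooth muscle cells (SM), hemogenic endothelium without (HE1, KIT+ TIE2+ CD41-) or with CD41 (HE2, KIT+ TIE2+ CD41+), and hematopoietic progenitors (HP, KIT+ TIE2- CD41+). There were 13 groups of 2 arrays, except untreated SM with 3, and FLK had no DOX arm. Nothing in the labels says that replicates were separate cultures, so the p-values below measure the spread between these samples, which may be technical.

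AXL, TYRO3 and MERTK form a family of receptor tyrosine kinases. Their ligands GAS6 and protein S, the product of Pros1, are vitamin K-dependent proteins that bind phosphatidylserine on the surface of dying cells at one end and a TAM receptor at the other, so that the receptors drive the clearance of apoptotic cells, dampen inflammatory signalling and support survival and migration. GAS6 can activate all of the family, whereas protein S acts on TYRO3 and MERTK and also serves in blood as an anticoagulant. Mertk is known from macrophages, Tyro3 from the nervous system, and Axl and Gas6 from vascular smooth muscle and endothelium.

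Levels are given as log2 of the processed signal minus the 75th percentile of log2 signal on the same array. That percentile corresponded to a signal between 73.2 and 639, 47 to 89.6% of probes were well above background on an array, and no probe was saturated. A level compares a gene between samples and never with another gene, since each probe has its own brightness. The Axl, Gas6 and Pros1 probes and the main Tyro3 probe, the brighter of its pair, were well above background on all 27 arrays, and the Mertk probe on 20. The labels were checked against marker genes, as the mean level over each list. The 6 endothelial markers were at 3.03 to 3.81 in untreated HE1 and the 5 progenitor markers at 2.53 to 2.94 in HP. The 5 smooth muscle markers were at 4.85 to 5.69 in SM. However, the SM arrays labelled replicate 2, the untreated and the DOX one, carried the endothelial markers at 2.00 and 2.05, where the other SM arrays were between -1.54 and -1.23. Many of the results below that rest on that pair, but not all, are also given without it. Replicates also differed in other markers: the 6 fibroblast markers were at 1.55 and -2.41 on untreated HE1 replicates 1 and 2, and at 1.47 and -0.71 with DOX, and the smooth muscle markers at 0.51 and 2.75 on untreated HP replicates 1 and 2, and at 0.76 and 2.39 with DOX. The mesoderm marker Mesp1 was below background in HE1, HE2 and HP, with and without DOX.

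Because Axl was the only member called with DOX, its promoter is shown. RefSeq (GRCm38.p6) places the window at chr7:25788684-25788983 on the minus strand, 250 bases before to 50 after the start site, and capitals mark the only match found for the TEAD letters GGAATG.

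Axl promoter: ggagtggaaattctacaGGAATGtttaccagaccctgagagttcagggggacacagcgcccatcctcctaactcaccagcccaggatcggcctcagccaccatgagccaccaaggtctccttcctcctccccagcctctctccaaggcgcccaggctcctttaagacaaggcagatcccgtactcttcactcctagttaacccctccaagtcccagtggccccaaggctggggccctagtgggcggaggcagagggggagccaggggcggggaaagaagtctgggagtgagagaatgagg

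Both strands of the 5 members' windows were searched for the AP-1 letters TGANTCA, the cyclic AMP response element TGACGTCA and GGAATG. The match in Axl, at position -233 counted from the start site, was the only one among the 5 genes. Of 32851 promoter windows of this length, 14.7% held GGAATG, 7.81% TGANTCA and 1.79% TGACGTCA, so that a single match in 5 windows is a description and no evidence of a site, and the letters say nothing about elements farther away.

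Axl, the receptor that binds GAS6 alone, varied widely, from a mean of 3.11 in d1BC to -1.74 in HE2 among the untreated groups, a span of 4.85 on the log2 scale, and to -3.52 in HE2 with DOX, where its signal was low. In freshly purified FLK cells it read -2.16 and -0.88. After 5 h of blast culture it read 2.09 and 2.04, which is 3.58 ± 0.73 (SE) higher, a 12-fold rise that was called (limma, adjusted p = 0.0120; a call here is an adjusted p under 0.05 over all genes tested and at least 2-fold). The call was lost without FLK replicate 1 (2.94, adjusted p = 0.159), without FLK5h replicate 1 (3.55, adjusted p = 0.160) and with slide as a block (3.55, adjusted p = 0.0660), and the difference within slide 1 was 3.55. Background for this step was 2.85% of all genes tested.

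In d1BC the 2 arrays read 2.84 and 3.38, and in SM the 3 arrays read 2.80, 3.06 and 2.99, so that both groups overlapped at the top of the order of 13 groups. HE1 was far below them, at 0.65 and 0.05. The drop from d1BC to HE1 was 2.76 ± 0.73 and was called (-2.76, limma adjusted p = 0.0464; background 3.13%), but not with slide as a block (-2.57, adjusted p = 0.285) nor without any 1 of the 4 arrays compared (adjusted p of 0.0978 to 0.378). SM stood 2.60 ± 0.67 above HE1 (adjusted p = 0.0852; background 0.521%), 3.01 within slide 2 and 2.33 within slide 5, without overlap; without the SM pair of slide 2 it was 2.55 (adjusted p = 0.0543). The step passed under 6 of the alternatives (adjusted p of 0.00683 to 0.0421), among them normexp (2.36, adjusted p = 0.0202). HE2, at -1.32 and -2.15, lay 2.09 ± 0.73 on the log2 scale under HE1 (-2.09, adjusted p = 0.205; background 2.30%), and HP read -2.10 and -0.66. Over the 7 untreated populations the F test gave an adjusted p of 2.88e-05 (4.55e-05 without the SM pair), beside 17.8% of all genes tested passing it. Axl was therefore low in FLK1+ cells, high in early blast culture and in SM, intermediate in HE1 and low again in the CD41+ populations.

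**Figure D1:**
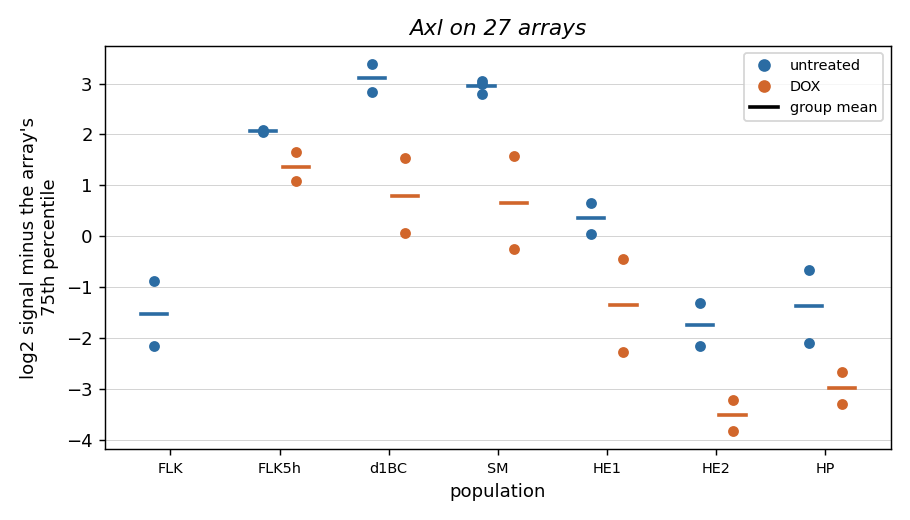
Axl on each of the 27 arrays, as log2 signal relative to that array's 75th percentile (vertical axis), by population (horizontal axis), untreated in blue and DOX in orange, with group means as bars. Every DOX array sits below every untreated array of its population, while the untreated level goes from a mean of -1.52 in FLK to 3.11 in d1BC and back to -1.38 in HP.

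With DOX, Axl was lower in all 6 populations, and in each of them both DOX arrays were below every untreated array. After 5 h the DOX arrays read 1.08 and 1.66 against 2.09 and 2.04, a small gap. At day 1 they read 0.06 and 1.53 against 2.84 and 3.38, and in SM 1.57 and -0.25 against 2.80, 3.06 and 2.99. Untreated Axl was highest in these 2 populations, and the SM gap differed between its arrays. In HE1 the DOX arrays read -0.45 and -2.27 against 0.65 and 0.05. In HE2 they read -3.83 and -3.21 against -1.32 and -2.15, and in HP -3.30 and -2.66 against -2.10 and -0.66. Axl was thus lower with DOX also where the untreated level was already low.

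As differences with their SE, DOX minus untreated was -0.69 ± 0.73 in FLK5h, -2.31 ± 0.73 in d1BC, -2.29 ± 0.67 in SM, -1.60 ± 0.73 in HP, -1.71 ± 0.73 in HE1 and -1.79 ± 0.73 in HE2. No population passed the threshold on its own: the adjusted p was 1.00 in FLK5h, d1BC and HE1, 0.852 in SM, 0.545 in HE2 and 0.999 in HP, with unadjusted values of 0.355, 0.00529, 0.00293, 0.0307, 0.0250 and 0.0417 for FLK5h, d1BC, SM, HE1, HE2 and HP. In these comparisons hardly any gene was called, 0.0042% of those tested in FLK5h, 0% in d1BC, 0.00839% in SM, 0.0318% in HP, 0% in HE1 and 0% in HE2; in d1BC, HE1 and HE2 none passed although 363, 265 and 2140 genes had an unadjusted limma p under 0.05. Averaged over the 4 sorted populations, Axl fell by 1.85 ± 0.36 on the log2 scale (3.60-fold, 95% interval -2.60 to -1.10) and was called (adjusted p = 0.0282), beside 0.31% of 27401 genes tested, of which 66 were lower and 19 higher.

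That call was close to its threshold, and with the replicate number as a block it was lost (-1.84, adjusted p = 0.0512). Without the SM pair of slide 2 the average was -1.61 (adjusted p = 0.103) and the SM difference alone was -1.33. Each of 17 arrays was also left out in turn: the average stayed between -2.08 and -1.62, and its adjusted p between 0.0137 and 0.101, past 0.05 without any of the 4 DOX arrays of HE2 and HP, SM replicate 3, SM DOX replicate 2, HE1 replicate 1 or 2, HE1 DOX replicate 2, HE2 replicate 1 or HP replicate 2. Of the alternatives, median scaling gave -1.65 (adjusted p = 0.150), and normexp background correction a smaller difference of -1.20 (adjusted p = 0.0423). In HE2 and HP the Axl signal with DOX was only 18.5 to 48.8 units before scaling, and the differences there were -0.79 each after normexp. Untreated HE2 replicate 1 was also low, at 29.4 units against 18.5 with DOX, and the 75th percentiles of these arrays were 73.2 and 263. For HE1 replicate 2 the signals were 133 untreated and 69.5 with DOX, and the percentiles 128 and 336. The differences between these arrays thus rest in part on the scaling.

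Slides held untreated and DOX arrays of the same population in 11 cases, and Axl was lower with DOX in 11 of 11, by -0.38 (FLK5h) to -3.31 (SM, slide 2). Within slides the other values were -1.85 and -2.78 in d1BC, -1.24 in SM on slide 1, -2.32 and -1.10 in HE1, -1.06 and -2.51 in HE2 and -2 and -1.20 in HP. Replicates of a population thus differed in size of the change but not in its direction. The difference among the 6 populations was not detected by limma's F test of the DOX effect, fitted across all genes (unadjusted value 0.648, adjusted p = 1.00; 0% of genes passed and 531 of 28309 had an unadjusted limma p under 0.05).

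Separation of this kind is common within a single population. Every DOX array was below every untreated one for 16.4% of genes tested in FLK5h, 9.61% in d1BC, 6.14% in SM, 12.5% in HP, 8.38% in HE1 and 14.5% in HE2. It held in all 6 populations for 14 of 20097 genes (0.0697%), a count made after the values of Axl were seen, and by the mean difference over the 6 populations (-1.73) Axl was the 4th of the 14, after Pstpip1 (-2.20), the TWEAK receptor gene Tnfrsf12a (-2.03) and the chemokine gene Ccl2 (-1.80). In cultures and sorted pools alike, fewer cells that express Axl and less Axl RNA per cell cannot be told apart.

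Means over the marker lists lay apart between DOX and untreated arrays in some of these groups. Such separation was common for single genes within a population, as given above, and no list was tested. In comparisons of a list and a population not given here, the ranges overlapped. The mean over 8 macrophage markers was -1.05 to -0.36 in HE2 and -2.31 to -1.98 with DOX, -0.88 to -0.39 in HP and -1.76 to -1.10 with DOX, and -1.68 to -1.60 in HE1 and -2.53 to -1.71 with DOX; C1qa was below background in HP and in HE1, with and without DOX. The 5 progenitor markers were also lower with DOX in HE2 (1.58 to 1.81 against -0.07 to 1.25), HP (2.53 to 2.94 against 1.17 to 1.29) and SM (-2.49 to -1.95 against -3.08 to -2.66), and higher in HE1 (-1.71 against -1.39 to -1.13). The mesoderm markers were higher with DOX in HP (-2.79 to -2.44 against -2.03 to -1.87) and in FLK5h (2.01 to 2.13 against 2.48 to 2.72). In FLK5h the macrophage markers (-3.40 to -2.98 against -2.91 to -2.22) and the megakaryocyte markers (-6.60 to -5.77 against -5.74 to -5.43) were also higher with DOX, at low levels, as were the megakaryocyte markers in HP (-2.04 to -2.02 against -1.59 to -1.08). The 6 fibroblast markers were at -0.48 to -0.43 in d1BC and at -1.22 to -0.79 with DOX. The 5 smooth muscle markers, which were highest in the populations of highest Axl, were at 5.98 to 6.07 in d1BC and 6.21 to 6.27 with DOX, and at 4.85 to 5.69 in SM and 4.20 to 5.60 with DOX, so that they were above the untreated range in d1BC and overlapped it in SM, as they did in HE1 (2.26 to 3.64 and 2.86 to 3.39 with DOX). Single members of the list differed. The calponin gene Cnn1 was lower with DOX in SM, at 2.14 to 4.30 against 4.43 to 5.27 untreated. It was also lower in HE1, at -0.19 to 0.68 against 0.73 to 2.41, and overlapped in d1BC, with means of 6.02 with DOX and 6.44 untreated. Tagln, another member, was lower with DOX in HE1 (6.48 to 7.16 against 7.36 to 7.78) and overlapped in SM and d1BC. The smooth muscle actin gene Acta2 overlapped in HE1 (means of 7.97 with DOX and 7.38 untreated) and in d1BC (9.25 and 9.08). Other members of the list are not given singly. The part of these markers in the Axl differences was not tested.

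Tyro3, the paralog known from neurons, showed no such drop on its main probe. Its main probe was highest in FLK (4.69 and 5.16) and FLK5h (5.15 and 4.21) and lowest in HE2 (0.53 and 2.18) and HP (1.54 and 2.74). From HE1, at 3.47 and 4.07, to HE2 it was 2.42 ± 0.71 lower (-2.42, adjusted p = 0.0915), and with slide as a block that step passed (adjusted p = 0.00183). For the same step the other Tyro3 probe gave -0.28 ± 0.86 (adjusted p = 1.00). The main probe varied over the untreated populations (F test, adjusted p = 0.00654, and 0.00937 without the SM pair of slide 2). With DOX the groups overlapped in all 6 populations, and the average over the sorted ones was 0.74 ± 0.35 (adjusted p = 0.425, and 0.67 without the SM pair). The main probe and its dimmer partner did not move together: the other Tyro3 probe gave -0.68 ± 0.42 for the same average (adjusted p = 0.507), 1.28 against -1.52 in HE2 for the main and the other probe, and an adjusted p of 0.204 over the untreated populations. The sign of the Tyro3 difference with DOX is therefore not settled by these arrays.

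Mertk, the receptor of phagocytic macrophages, was dim, at 3.61 to 118 units before scaling. It read -3.51, -2.13 and -3.26 in SM, its highest untreated group, and -4.15 and -6.72 in HP, where 1 of 2 arrays was well above background. With DOX in HP neither array was, and the comparison was not made in HE2 or HP, where no group was measured on all arrays. In d1BC the DOX arrays read -6.28 (not well above background) and -4.54 against -3.75 and -3.83, a difference of -1.62 ± 0.77 that did not pass (adjusted p = 1.00) and was -0.06 after normexp. In FLK5h the difference was -0.37 ± 0.77. Mertk did not overlap in either, as for 16.4% of genes tested that were lower in FLK5h and 9.61% in d1BC. Within slides Mertk was lower with DOX in 8 of 11 cases. In SM and HE1, the sorted populations where Mertk was tested, the DOX differences were 0.28 ± 0.71 (1.03 without the SM pair) and -0.07 ± 0.77. The average over the sorted populations, -0.07 ± 0.38, takes in values near background from HE2 and HP. Over the untreated populations the F test gave an adjusted p of 0.194, and 0.248 without the SM pair.

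**Figure D2:**
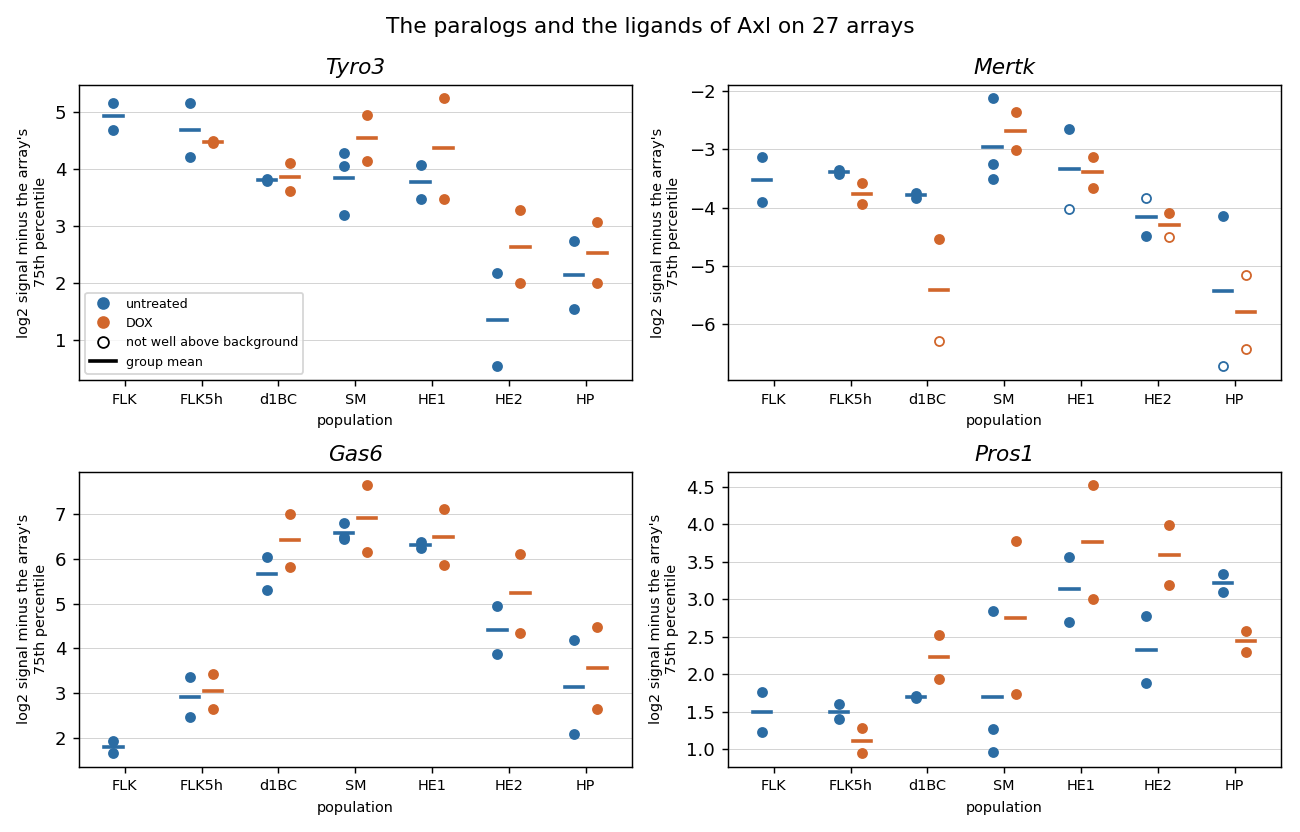
Tyro3 (main probe), Mertk, Gas6 and Pros1 on the 27 arrays, as log2 signal relative to that array's 75th percentile (vertical axes, which differ between panels), by population, untreated in blue and DOX in orange, with group means as bars and open points where the probe was not well above background. Gas6 goes from 1.79 in FLK to 6.58 in untreated SM, Tyro3 is lowest in HE2 and HP, and 7 of the 27 Mertk points are open.

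Gas6, the ligand shared by all of the receptors, varied over the untreated populations and did not follow the DOX pattern of Axl. It read 1.66 and 1.93 in FLK, the lowest group, 3.36 and 2.46 in FLK5h, and 6.04 and 5.31 in d1BC. The step from FLK5h to d1BC was 2.77 ± 0.81 (6.81-fold, adjusted p = 0.116; background 1.41%) and passed under 4 of the alternatives, among them quantile normalization (2.70, adjusted p = 0.0207). SM (6.44, 6.81 and 6.49) and HE1 (6.24 and 6.38) were the highest untreated groups. From HE1 to HE2, at 3.88 and 4.95, the difference was -1.89 ± 0.81 (adjusted p = 0.406, and 0.0293 with slide as a block), and HP read 2.08 and 4.19. Over the 7 untreated populations Gas6 varied with an adjusted p of 0.000442 (0.00103 without the SM pair), so that Axl and its ligand were both high in d1BC and SM, while in HE1 Gas6 was near its top and Axl was not.

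With DOX, Gas6 overlapped the untreated arrays in all 6 populations, with differences between 0.13 ± 0.81 in FLK5h and 0.82 ± 0.81 in HE2. The average over the sorted populations was 0.44 ± 0.40 (95% interval -0.39 to 1.27, adjusted p = 0.638), and 0.28 without the SM pair, with a difference of -0.31 in SM itself. Within slides it was higher with DOX in 9 of 11 cases.

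Pros1, which encodes protein S, stayed within a narrower range, from a mean of 1.11 in FLK5h with DOX to 3.77 in HE1 with DOX. Untreated it read 1.23 and 1.77 in FLK and 1.68 and 1.71 in d1BC. It read 2.70 and 3.56 in HE1 and 3.1 and 3.33 in HP. HE1 minus d1BC, which shared no slide, was 1.43 ± 0.70 (adjusted p = 0.310), and 0.17 with slide as a block. SM spread from 0.97 to 2.85, the array at 2.85 being the one with endothelial markers; against HE1, SM was 1.43 ± 0.64 lower (-1.43, adjusted p = 0.509), and the F test over the untreated populations gave an adjusted p of 0.202. Without the SM pair of slide 2 that difference was -2.01 (adjusted p = 0.0523), and the F test passed (adjusted p = 0.0321). With DOX, Pros1 was higher without overlap in d1BC (1.94 and 2.52) and in HE2 (3.19 and 3.99 against 1.88 and 2.78, a difference of 1.26 ± 0.70), and lower without overlap in FLK5h (0.95 and 1.28 against 1.40 and 1.61) and in HP (2.30 and 2.58, a difference of -0.78 ± 0.70). Such separation upward was seen for 18.9% of all genes tested in d1BC and 20.3% in HE2. None passed (adjusted p of 0.546 in HE2 and 0.999 in HP), and limma's F test did not detect a difference of the DOX effect among populations (unadjusted value 0.288, adjusted p = 1.00). The average over the sorted populations was 0.54 ± 0.34 (95% interval -0.18 to 1.27, adjusted p = 0.514, and 0.43 without the SM pair).

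**Figure D3:**
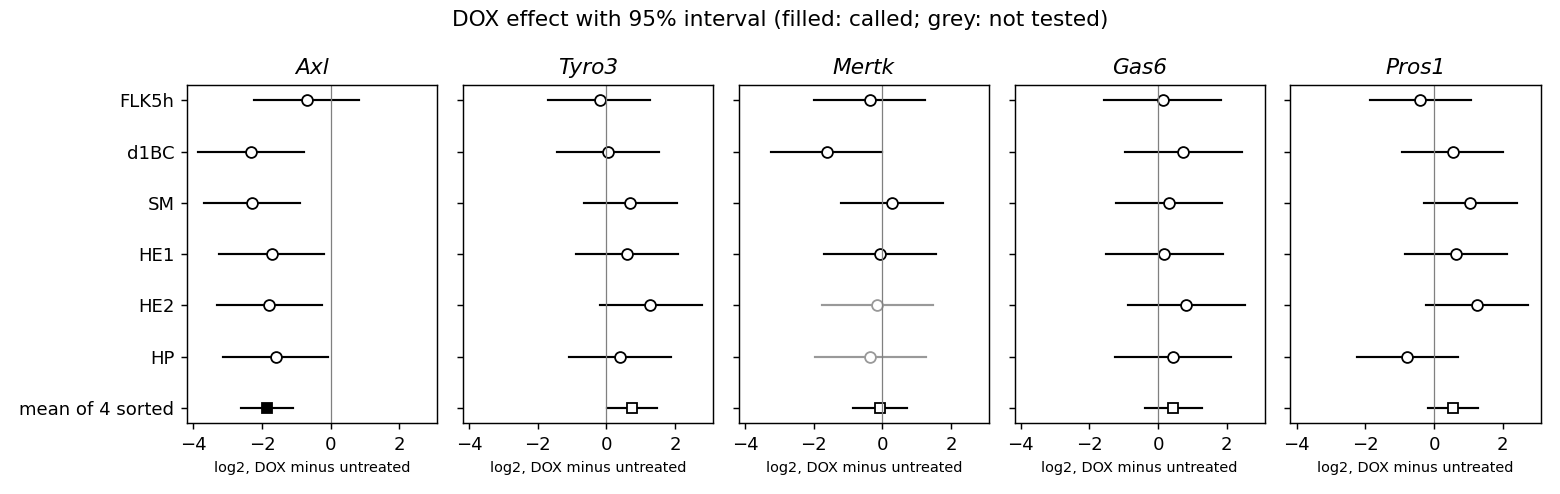
DOX minus untreated on the log2 scale (horizontal axis) for each member in each of 6 populations (circles) and averaged over the 4 sorted ones (squares), with 95% intervals from limma, filled where called and grey where not tested. The Axl average, -1.85, is the only filled point, and its interval ends at -1.10.

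Axl was then set against each other member on the same array, which removes what an array adds to both. Over SM, HE1, HE2 and HP, the log2 difference of Axl minus Tyro3 was 2.59 on the log2 scale lower with DOX (-2.59), Axl minus Pros1 -2.39, Axl minus Gas6 -2.29 and Axl minus Mertk -1.78, and each was negative in 4 of 4 populations. In an exact two-sided permutation test that shuffled DOX and untreated within each population (2160 arrangements), p was 0.000926 for Tyro3, 0.00139 for Pros1, 0.000926 for Gas6 and 0.00972 for Mertk. Adjusted over these 4 comparisons, by Benjamini-Hochberg in the exact permutation test, p was 0.00185 for Tyro3, Gas6 and Pros1 and 0.00972 for Mertk. The smallest p the exact permutation test allows here is 0.000463. Without the SM pair of slide 2 the differences were -2.27, -2.04, -1.89 and -1.72 for Tyro3, Pros1, Gas6 and Mertk, with adjusted exact p of 0.00823 for the former 3 and 0.0185 for Mertk; without HP DOX replicate 1 the Mertk difference no longer passed (-1.54, adjusted exact p = 0.0556). The test exchanges arrays across slides. When DOX and untreated were exchanged only within slides (8 pairs, 256 arrangements), the difference was negative in 8 of 8 pairs for each of the 4 members, with an exact p of 0.00781, the smallest that this scheme gives. For Tyro3 the size turned on the probe: the other probe gave -1.17 (unadjusted exact permutation p = 0.0394). For Mertk, SM and HE1 alone gave -2.11 (unadjusted exact permutation p = 0.0167, the smallest of 60 arrangements), but the Mertk probe was not well above background on untreated HE1 replicate 1 either, so that the comparison with Mertk rests in part on values near background. The 4 populations were sorted from day 2 cultures, with no statement of which arrays share a culture. Where populations came from the same culture, their arrays are not separate units, and the p-values of these permutation tests and of the limma average over the sorted populations are too small.

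**Figure D4:**
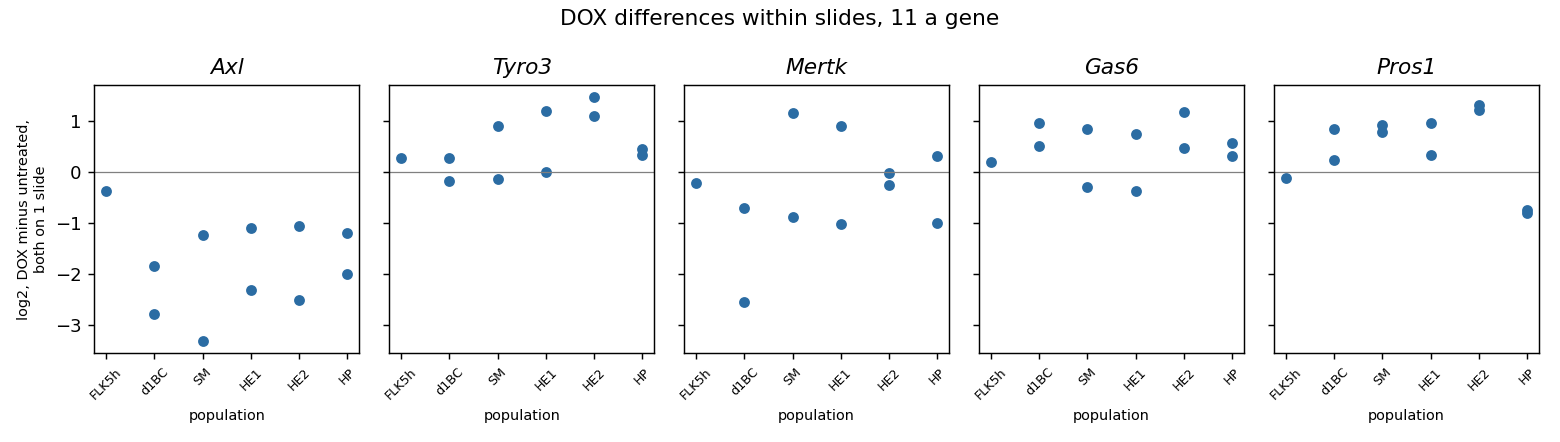
DOX minus untreated on the log2 scale (vertical axis) where both arrays lay on the same slide, 11 cases a gene, by population (horizontal axis), 1 panel a member. All Axl points are below 0, from -3.31 to -0.38, whereas those of the other members fall on both sides of 0.

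Across the 13 group means, which share arrays, scaling and slides, the members were only loosely alike. Pearson's r was 0.605 for Tyro3 with Mertk, 0.530 for Axl with Tyro3, 0.485 for Axl with Mertk, 0.433 for Gas6 with Pros1, 0.272 for Axl with Gas6 and -0.599 for Axl with Pros1. Among 16386 other genes, those with patterns most like that of Axl over the 13 groups included 2200002D01Rik (r = 0.964) and the tubulin gene Tubb3 (r = 0.960). For Tyro3 the nearest were Trim26 (0.985), the fibulin gene Fbln1 (0.980) and the growth factor gene Mdk (0.971), and for Gas6 Mest (0.978), Tmem108 (0.978) and the growth hormone receptor gene Ghr (0.958). For Pros1 they were Fam241a (0.946), Acsl4 (0.937) and Tet2 (0.932), and for Mertk, with its low signal, the cholesterol transporter gene Npc1 (0.916), Hyal1 (0.885) and Mmp2 (0.884).

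The wider pathway was followed under DOX from a list. Of 44 genes listed for ligand maturation, receptor shedding, signalling, engulfment and phosphatidylserine exposure, 41 were tested in the average over the sorted populations and 0 were called in either direction by limma, with a median of 0.15 against 0.07 over all genes; none was called in any single population either. With 0.31% of all genes called in the average, a list of this size would hold hardly any call. The vitamin K genes Ggcx, Vkorc1 and Vkorc1l1, needed to mature GAS6 and protein S, had a median of -0.02 over the sorted populations, and the sheddases Adam10 and Adam17 of 0.32. The 18 signalling genes had a median of 0.13 (8 lower and 10 higher) and the 13 tested engulfment genes of 0.03 (6 lower and 7 higher). For the 5 genes of phosphatidylserine exposure it was 0.56, with 4 of 5 higher.

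Between the untreated populations a few of these genes were called. From d1BC to HE1, 3 of 40 tested rose (beside 3.13% of all genes called in either direction), among them Stab1, a scavenger receptor of endothelium that binds phosphatidylserine (6.78 ± 1.00, adjusted p = 0.00133), and Pik3r1, a regulatory subunit of PI3-kinase (2.05 ± 0.45, adjusted p = 0.0161). The d1BC and HE1 arrays shared no slide, and with slide as a block the calls over all genes for that step fell from 738 to 91. Stab1 was 5.06 ± 0.92 lower in SM than in HE1 (-5.06, adjusted p = 0.0297), and -6.18 ± 0.64 without the SM pair of slide 2 (adjusted p = 1.91e-05). From HE1 to HE2, 4 of 40 were called (beside 2.30% of all genes): Itgb3, the integrin chain of platelets and their precursors, rose (4.97 ± 0.82, adjusted p = 0.00277), as did the exchange factor gene Vav1 (3.72 ± 0.93, adjusted p = 0.0386), whereas Itgb5 fell (-3.89 ± 0.65, adjusted p = 0.00284) with the flippase gene Atp11a (-2.49 ± 0.51, adjusted p = 0.0123). None was called from d1BC to SM (background 0.247%) or from HE2 to HP (background 0.00394%).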

How the data were processed

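Expression was measured on 27 Agilent SurePrint G3 Mouse 8x60K one-colour arrays (62976 spots). The authors deposited Feature Extraction files with processed intensity per spot (background-subtracted; version 10.7.3.1 in the file headers, 10.7.1.1 in the submitters' processing notes; probe coordinates of mm9) and a table of processed log2 values, whose scaling is not given in the sources used here; each of its 27 columns followed its own array. Control spots were left out. Spots of a probe were averaged without those flagged as outliers, which were kept where every spot of the probe was flagged. The log2 processed intensity was centred on the 75th percentile of each array. The probe with the highest mean stood for its gene. Genes were tested where every array of 1 or more of the compared groups had the probe well above background, with limma 3.58.1 (R 4.3.3), fitted to 13 group means over all arrays, with Benjamini-Hochberg adjustment over all genes tested; calls needed an adjusted p under 0.05 and at least 2-fold. Axl minus another member was tested by exact permutation within populations. The fit was tested on simulated data. The number of arrays limits precision.

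Members and gene lists were chosen with earlier results of these data known. Named genes were the members, the 3 genes of most similar pattern to each, and called genes of the pathway lists; some of these are not reported here. Members of the 2 shortest pathway lists, single marker genes, and genes lower with DOX in all 6 populations are named outside this rule, the markers and the latter after their values were seen. Alternatives were normexp background correction, quantile and median scaling, the authors' log2 values, other filters and probes, slide, scan-day or replicate blocks, a mean-variance trend, array weights, fits of the compared groups alone, and leaving out arrays; the scan-day block, leaving out the SM pair of slide 2, exchange within slides, and the tests of Axl against the other Tyro3 probe and against Mertk in SM and HE1 alone were chosen after seeing the data. Promoters came from RefSeq (GRCm38.p6), whose coordinates were not mixed with those of the array.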

Additional observations from a re-analysis of the deposited data

How the results depend on the processing

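Groups of 2 arrays gave wide errors, and 7 of 27 Mertk values were not well above background. Of 1347 values recomputed for 59 results (steps under 2-fold were not followed), 1239 kept their direction and their side of the threshold. Most of these results were not called, many with an adjusted p that could hardly cross the threshold, and F tests have no direction. That count therefore says little about the calls. The Axl average over the sorted populations stayed negative under all alternatives, from -2.08 to -1.20, but was no longer past the threshold with median scaling (-1.65), array quality weights (-1.85, adjusted p = 0.0669), only the groups compared (-1.85, adjusted p = 0.136) or the SM pair of slide 2 left out (-1.61), nor without 11 of 17 single arrays (-1.93 to -1.62, where leaving out each of the 17 gave -2.08 to -1.62). With the replicate number as a block it was -1.84 (adjusted p = 0.0512) and the drop from d1BC to HE1 had an adjusted p of 0.0551; the block changed no other call of a member. That drop was also not called with no filter (adjusted p = 0.0696), a stricter filter (0.0607), slide as a random block (0.0609), scan day as a block (0.0856) or only the groups compared (0.111), and the rise from FLK to FLK5h not with scan day as a block (0.0579). The main fit did not take the numbers to pair samples. Replicate differences of untreated and DOX groups correlated over genes at -0.008 in FLK5h. Elsewhere they correlated at 0.248 to 0.798, so that a pairing is possible there. Over all genes, 85 were called in the average over the sorted populations, and between 25 and 357 under the alternatives that kept all arrays. In that average the median of all genes tested was 0.07, and 0.27 with median scaling. Gas6 from HE1 to HE2 passed under 5 alternatives and Pros1 over the untreated populations under 4 (adjusted p from 0.0130 to 0.0321).

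Directions turned for differences with DOX that were not called. The Tyro3 difference was 0.18 with slide and 0.15 with scan day as a block in FLK5h, and in d1BC -0.37 with normexp, -0.01 with quantile, -0.35 with the authors' values and -0.06 with the mean of probes, which gave -0.08 in SM and -0.12 in HE2. The other Tyro3 probe gave -0.16 in d1BC, -0.86 in SM, -1.52 in HE2, -0.37 in HP and -0.68 on average. Gas6 was -0.51 with median scaling in FLK5h, -0.12 with quantile, -0.06 with the authors' values and -0.31 without the SM pair in SM, and -0.04 with quantile in HE1. Mertk was -0.08 with normexp in SM, 0.22, 0.21 and 0.11 with quantile, median and authors' values in HE1, and 0.15, 0.13, 0.13 and, without the SM pair, 0.12 on average. The cause was not tested. Leaving out single arrays gave ranges across 0 for Tyro3 in FLK5h (-0.68 to 0.27), d1BC (-0.20 to 0.29), HE1 (-0.29 to 1.47) and HP (-0.21 to 0.99), for Gas6 in FLK5h (-0.32 to 0.58), SM (-0.43 to 1.07), HE1 (-0.44 to 0.81), HE2 (-0.06 to 1.70) and HP (-0.62 to 1.48), for Pros1 in HE1 (-0.11 to 1.39), and for Mertk in SM (-0.04 to 0.70), HE1 (-0.75 to 0.62) and on average (-0.39 to 0.25).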
